A study of Mus musculus with 6 samples.

Results

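The giant ubiquitin ligase mRNAs described here are those of Huwe1, Herc1, Herc2, Ubr4, Mycbp2, Birc6 and Trip12. These 7 genes were taken by name from the 24411 genes of the deposited tables, and all 7 also lay among the 5918 genes with enough counts to be tested. RNA was sequenced from the corpus callosum, the tract of axons that joins the cortical hemispheres, dissected by hand from frozen brain sections of B6 mice on postnatal day 4. One group of 3 libraries was wild type (WT) and the other group of 3 carried a conditional knockout (cKO) of Mettl14, the gene of a subunit of the enzyme complex behind N6-methyladenosine (m6A), a common mark of mRNA. Neither the Cre line nor whether each library came from a separate animal is given in the sources used here, so the tests reflect the spread from library to library, which may be technical. The question of the study is whether m6A affects which mRNAs are carried out of neuronal cell bodies into their axons and dendrites.

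Ubiquitin ligases join the small protein ubiquitin to other proteins, often marking them for the proteasome. Ubiquitin passes from an activating enzyme (E1) to a conjugating enzyme (E2) and then, with a ligase (E3), to its target. The ligases described here stand out by the size of the protein. Huwe1, Herc1, Herc2 and Trip12 end in a HECT domain, which takes ubiquitin onto its own cysteine before handing it on. Ubr4 recognises proteins by destabilising N-terminal residues (N-degrons), Mycbp2 (also called Phr1) acts with the F-box protein Fbxo45 in growing and injured axons, and Birc6 joins E2 and E3 activity in an inhibitor of apoptosis.

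Each gene was represented by 1 RefSeq transcript in the files. Transcript lengths were 14624 bases for Huwe1, 15229 for Herc1, 15346 for Herc2, 15872 for Ubr4, 15233 for Mycbp2, 15768 for Birc6 and 9632 for Trip12. By longest transcript, the first 6 ranked 32 to 57 among all genes and Trip12 ranked 339. The coding sequences in GENCODE M21 (build GRCm38, the same assembly as mm10) ran from 2025 codons in Trip12 to 5180 codons in Ubr4. Exons numbered 83 in Huwe1, 78 in Herc1, 93 in Herc2, 106 in Ubr4, 85 in Mycbp2, 73 in Birc6 and 41 in Trip12. Trip12 differed in layout as well as in size, with a 3′ UTR of 3429 bases against 357 to 1034 in the others and a last exon of 3626 bases. In every library the expected count of each of the 7 genes was a whole number to every decimal that the files print.

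Because the study removes an m6A writer, the sites that could carry the mark in these mRNAs were read from the transcript sequences. The letters GGACT, a frequent form of the m6A consensus, were searched on the mRNA strand only, and no other motif was searched. The files hold no m6A measurement, so a match is a description of sequence. For each mRNA the match nearest to the stop codon is printed 5′ to 3′ as DNA letters with its flanks, GGACT in capitals.
Huwe1: tctctcgtggGGACTctggtacccg
Herc1: ggggagatggGGACTatggcaaact
Herc2: acagcagtgaGGACTcagataatga
Ubr4: aggcggtgaaGGACTattctgcgta
Mycbp2: ccatgctcatGGACTgagaaggatg
Birc6: tcttattcctGGACTgtgtgggttt
Trip12: ttaaattgccGGACTactcgagcat

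On GRCm38 these sites lie at chrX:151921326-151921350 (plus strand, exon 69, coding) for Huwe1, chr9:66486151-66486175 (plus, exon 65, coding) for Herc1 and chr7:56231053-56231077 (plus, exon 93, coding) for Herc2. The others lie at chr4:139485296-139485320 (plus, exon 104, coding) for Ubr4, chr14:103113794-103113818 (minus, exon 85, 3′ UTR) for Mycbp2, chr17:74703172-74703196 (plus, exon 73, 3′ UTR) for Birc6 and chr1:84724685-84724709 (minus, exon 41, coding) for Trip12. The match was 65 bases before the stop codon in Herc2 and 77 bases before it in Trip12, but 2294 and 2255 bases before it in Huwe1 and Herc1. Within 200 bases on either side of the stop codon, where m6A is known to be frequent, 2 of the 7 mRNAs held GGACT, against 38.8% of 17762 mouse transcripts with 1 transcript per gene. Density per kb of transcript was 1.51 in Ubr4 and 1.44 in Herc2, 0.761 to 0.892 in Huwe1, Herc1, Mycbp2 and Birc6, and 0.519 in Trip12. The median over 21617 transcripts was 1.01, so 2 of these mRNAs lay above it and 5 below. Most matches lay in coding sequence, 24 of 24 in Ubr4 and 22 of 22 in Herc2. Coding sequence also made up most of these transcripts, with 15540 of 15928 bases in Ubr4 and 14508 of 15250 in Herc2. In Trip12, with its long 3′ UTR, 2 of 5 matches lay in the 3′ UTR.

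The libraries held 670462 to 1268430 expected counts, which is shallow. On the scale used here, CPM after TMM scaling (counts relative to the size of the library), 3 counts equalled 2.41 to 4.24 CPM. Mettl14 itself was too shallow to check the knockout, at 5 to 11 counts in WT and 2 to 7 in cKO. Both replicate 2 libraries had shorter fragments (304.3 and 292.7 bases on average) than the others (332.4 to 350.5). Xist had 2323 to 4618 counts in cKO and 0 in WT, and the Y-linked Eif2s3y 51 to 80 in WT and 0 in cKO, so the genotype cannot be told apart from sex. Summed markers of several cell types also differed with genotype. Summed over 9 oligodendrocyte markers, WT libraries held 2536 to 4122 CPM and cKO libraries 2 to 10.8, with Mobp at 0 in all and Mog, Mag, Enpp6 and Myrf at 0 in cKO. The 8 astrocyte markers summed to 12360 to 15152 CPM in WT and 3791 to 4282 in cKO. The 5 precursor markers summed to 2284 to 2874 CPM in WT and 11.3 to 971 in cKO. Within cKO, Sox10 was at 0 and Olig1 alone had 949, 626 and 0 CPM. The 5 endothelial markers summed to 79.2 to 165 CPM in WT and 29 to 36.3 in cKO, with Cldn5 at 0 in all. The groups overlapped for the 6 microglial markers, at 76.4 to 457 CPM in WT and 47.1 to 259 in cKO, where P2ry12 was at 0. They also overlapped for the 4 meningeal markers, at 19.3 to 46.6 CPM in WT and 13 to 83.5 in cKO, with Lum at 0 in all. The 8 pan-neuronal markers summed to 6997 to 8913 CPM in WT and 9900 to 13573 in cKO. The 8 excitatory neuron markers summed to 179 to 741 CPM in WT and 4550 to 5113 in cKO, with Neurod2 and Bcl11b at 0 in WT. Single markers did not all follow the sums. Log2 fold changes were above 0 for 6 of 8 pan-neuronal markers (Snap25 −0.31, Syt1 −1.08) and 5 of 6 tested excitatory ones (Slc17a7 −0.6). The astrocyte marker Gfap had 53.8, 47 and 1031 CPM in cKO and 929 to 1248 in WT. In bulk RNA fewer cells of a type and less RNA per cell cannot be told apart, and the part of these differences in the values of the ligases was not tested.

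Levels between genes were compared as TPM, which divides by transcript length. In WT, Huwe1 had the highest mean at 56.5 ± 7.2 TPM (SD, n = 3), followed by Trip12 at 42.8 ± 26.6 and Ubr4 at 19.5 ± 8.91. Mycbp2 stood at 13.5 ± 4.12 TPM, Herc1 at 8.5 ± 4.67, Herc2 at 8.46 ± 4.01 and Birc6 at 4.55 ± 1.35. In cKO the means were 109 ± 84.7 TPM for Huwe1, 67.2 ± 38.1 for Trip12, 35.8 ± 31.5 for Ubr4, 26.1 ± 12.2 for Mycbp2, 20.6 ± 13.1 for Herc2, 12.6 ± 7.15 for Herc1 and 6.69 ± 5.79 for Birc6. The ends of this order were steady, since Huwe1 ranked first in 5 of the 6 libraries and Birc6 last in all 6. Neighbours in between did not differ beyond their spread. Trip12 was above Huwe1 in WT replicate 1, at 66 against 49.8 TPM, and Mycbp2 moved between ranks 3 and 6. Huwe1 and Trip12 together made up most of the family's summed TPM in each library. The share of Huwe1 ran from 28% in cKO replicate 2 to 51.8% in WT replicate 3, and that of Trip12 from 11.1% in WT replicate 3 to 40.1% in WT replicate 1.

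**Figure D1:**
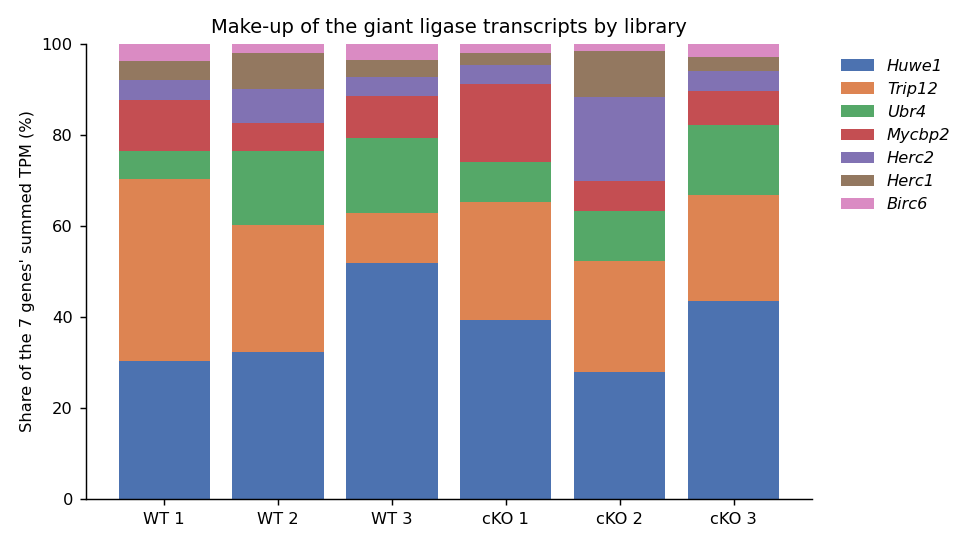
Share of the summed TPM of the 7 giant ligases (y axis, percent) taken by each gene in each of the 6 libraries (x axis), 1 stacked bar per library. Huwe1 holds 28% to 51.8% of each bar, Herc2 widens to 18.3% in cKO replicate 2, and Trip12 narrows to 11.1% in WT replicate 3.

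Between the groups, none of the giant ligases passed the test. With edgeR's quasi-likelihood test 0 of the 7 had a Benjamini-Hochberg adjusted p below 0.05 over all genes tested (0.912% of all tested genes passed, 0.49% higher and 0.422% lower in cKO), and 0 had an unadjusted p below 0.05 (12.6% of all tested genes). DESeq2 and limma-voom also called 0 of the 7. DESeq2 called 4.15% of all genes it tested, and limma-voom called 22 of 5918 genes higher and 20 lower. The CPM of the groups overlapped for each of the 7, while 19.8% of all tested genes had groups that did not overlap (10.4% with cKO above and 9.45% with cKO below). Each of the 7 log2 fold changes (cKO relative to WT) was above 0, with a median of 0.83. Over all tested genes the median was 0.07 and 53.9% were above 0. The 95% intervals were wide, and each of the 7 held both 0 and values above 1 on the log2 scale.

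**Figure D2:**
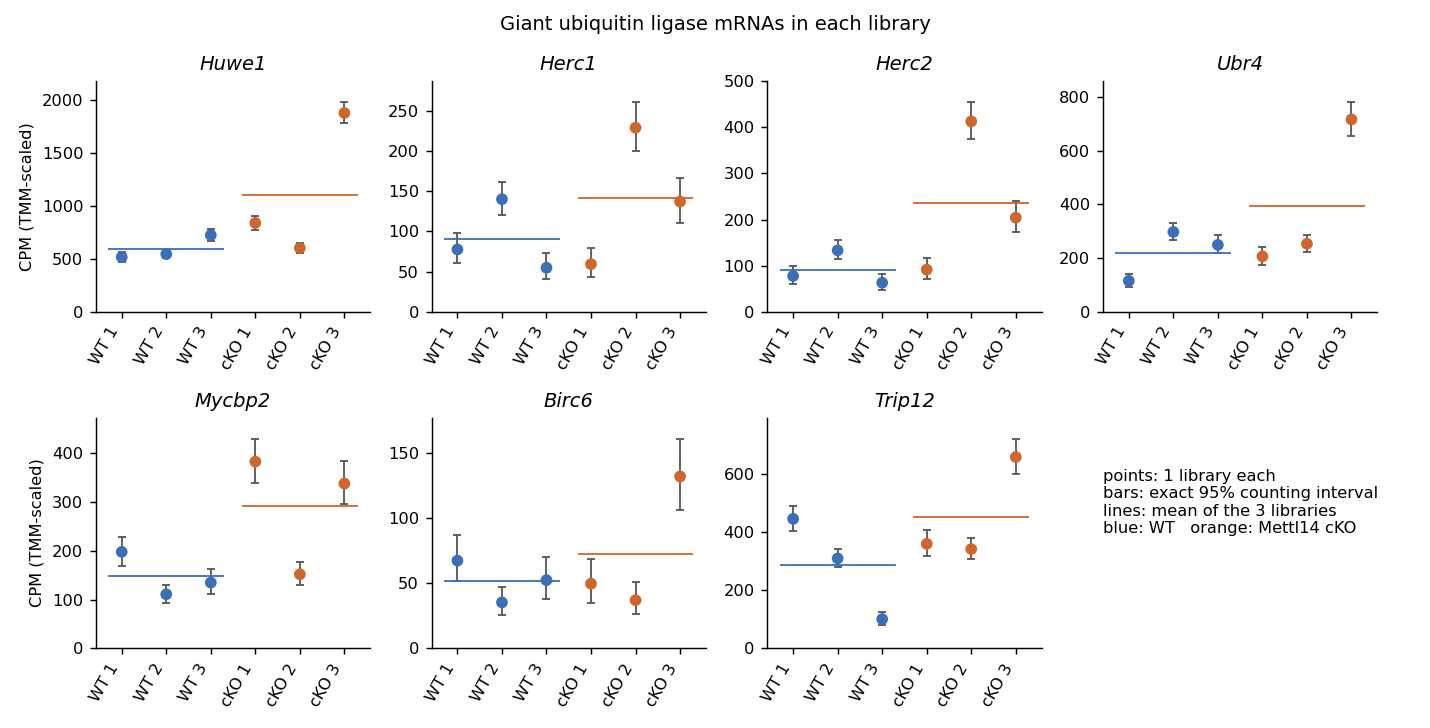
CPM (y axis, TMM-scaled, each panel from 0) of each giant ligase in the 3 WT libraries (blue) and the 3 Mettl14 cKO libraries (orange), with exact 95% counting intervals as bars and the group means as lines. cKO replicate 3 is the highest library for Huwe1, Ubr4, Birc6 and Trip12, cKO replicate 2 for Herc1 and Herc2, and cKO replicate 1 for Mycbp2.

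Huwe1, the HECT ligase of the apoptosis regulator Mcl1 and of Myc proteins, lies on the X chromosome (151800785 to 151935417). Its level was 517, 545 and 725 CPM in WT replicates 1 to 3 and 840, 603 and 1881 CPM in the cKO replicates. The groups overlapped because cKO replicate 2 lay below WT replicate 3, while cKO replicate 3 was 2.24 times the next highest library. The log2 fold change was 0.89 (SE 0.45, 95% interval −0.18 to 1.97, edgeR adjusted p = 0.491). Leaving out each library in turn gave 0.29 (without cKO replicate 3) to 1.187 (without cKO replicate 2). X-linked genes as a class stood higher in cKO, which are the libraries with Xist: over 203 other tested genes of the X chromosome the median log2 fold change was 0.62, against 0.06 over 5705 autosomal genes. Of 4 X-linked genes known to escape inactivation 3 were tested, with a median of 1.74 and 0 called by edgeR, DESeq2 or limma-voom (1 at an unadjusted p below 0.05). Scaled to the genes of its own chromosome, an alternative chosen after seeing the data, Huwe1 stood at 0.35 (SE 0.44). The high value of cKO replicate 3 was not shared by the other X-linked genes as a class. Over them the median log2 ratio of that library to the mean of the other cKO libraries was 0, where Huwe1 was 2.61 times that mean. Single genes did stand high there. That library was the highest of the 6 for 32% of the other X-linked genes, against 18.7% of autosomal genes. Of the 3 tested escape genes it was highest for 1, Kdm5c (45.7, 14 and 406 CPM in cKO).

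Herc1 and Herc2 carry RCC1-like repeats beside the HECT domain, and Herc2 is a partner and activator of the ligase Ube3a. Herc1 (chromosome 9, 66350412 to 66508775) had 77.5, 140 and 54.7 CPM in WT and 59.2, 229 and 137 CPM in cKO. Herc2 (chromosome 7, 56050124 to 56231800) had 77.5, 133 and 62.9 CPM in WT and 91.4, 413 and 204 CPM in cKO. Both were highest in the replicate 2 library of each genotype. Herc1 was there 2.11 times (WT) and 2.33 times (cKO) the mean of the other libraries of its group, and Herc2 1.9 and 2.8 times. The log2 fold change was 0.64 for Herc1 (SE 0.66, interval −0.93 to 2.22, edgeR adjusted p = 0.781). It was 0.11 without cKO replicate 2, 1.098 without WT replicate 2 and 0.571 without both. Herc2 had the largest of the 7 at 1.37 (SE 0.67, interval −0.21 to 2.95, edgeR adjusted p = 0.471). Its value was 0.69 without cKO replicate 2, 1.747 without WT replicate 2 and 1.073 without both. Leaving out both was chosen after seeing the data. Ube3a, also on chromosome 7, had 11.2, 75.5 and 8.15 CPM in WT and 78, 292 and 9.9 CPM in cKO, again with the highest value of each group in replicate 2.

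Trip12, a HECT ligase of chromatin and DNA repair proteins (chromosome 1, 84721189 to 84850004), varied most among the WT libraries, with 446, 310 and 101 CPM. The cKO libraries had 360, 342 and 659 CPM. WT replicate 3 stood low, and its exact 95% counting interval of 81.1 to 125 CPM did not reach those of the other libraries. The log2 fold change was 0.67 (SE 0.59, interval −0.74 to 2.07, edgeR adjusted p = 0.732). With each library left out in turn it ran from 0.25 (without WT replicate 3) to 1.141 (without WT replicate 1).

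Ubr4, the N-degron ligase (chromosome 4, 139380659 to 139489533), had 115, 297 and 249 CPM in WT and 206, 253 and 716 CPM in cKO. The high value was again that of cKO replicate 3, at 2.41 times the next highest library, and the low one that of WT replicate 1. Its fold change on the log2 scale was 0.83 (SE 0.62, interval −0.65 to 2.31, edgeR adjusted p = 0.673). With each library left out in turn it ran from 0.08 (without cKO replicate 3) to 1.139 (without cKO replicate 1).

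Mycbp2, the ligase of axon growth and degeneration (chromosome 14, 103113411 to 103346840), had 198, 111 and 135 CPM in WT and 383, 152 and 338 CPM in cKO. Both cKO replicates 1 and 3 lay above all WT libraries and cKO replicate 2 did not. Its log2 fold change was 0.98 (SE 0.5, interval −0.22 to 2.18, edgeR adjusted p = 0.499), and 0.87 without cKO replicate 3. Herc1 (0.68) and Herc2 (1.47) likewise kept their values without that library. With each library left out in turn, Mycbp2 ran from 0.704 (without cKO replicate 1) to 1.288 (without cKO replicate 2). Birc6, the inhibitor of apoptosis (chromosome 17, 74528254 to 74703356), had 67.4, 35.3 and 52.4 CPM in WT and 49.7, 37 and 132 CPM in cKO. The difference on the log2 scale was 0.49 (SE 0.63, interval −1.01 to 1.99, edgeR adjusted p = 0.844) and became −0.24 without cKO replicate 3.

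The spread between libraries was larger than counting error for each gene. Among WT libraries the coefficient of variation of CPM ran from 19% (Huwe1) to 60.8% (Trip12), where counting alone would give 4.13% to 14.2%. Among cKO libraries it ran from 39.2% to 72%, with 3.43% to 13.4% from counting. Over 2413 other tested genes with a mean CPM in the range of these 7, the median was 40% in WT and 44.9% in cKO. The medians of the giant ligases were 40.8% and 61.4%, so they stood near such genes in WT and above them in cKO, a difference that was not tested. Over the 160 other tested genes of at least 9632 bases the medians were 49.2% and 63.5%.

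In cKO replicate 3, classes of longer tested genes stood higher, but the giant ligases did not all do so. In that library the giant ligases took 0.429% of all counts, against 0.138% to 0.174% in the other 5. The 308 other genes of at least 9632 bases, Xist left out, took 3.63% against 1.68% to 2.88%. Within these long mRNAs and the giant ligases together, the ligases took 10.6% in cKO replicate 3 and 5.69% to 7.59% elsewhere. The median log2 ratio of cKO replicate 3 to the mean of the other cKO libraries was −0.79 over 386 tested genes under 1000 bases, 0.02 over 1804 genes of 3000 to 5000 bases and 0.53 over 160 other genes of at least 9632 bases. For the giant ligases it was 0.91. In the comparison of the genotypes the median log2 fold change was also higher in the long classes, at 0.01 under 1000 bases, −0.03 from 1000 to 3000 bases and 0.57 in the longest class, where 72.5% of genes were above 0 and 1 of 160 passed. Scaled to the other long mRNAs, a choice made after seeing the data, log2 fold changes were 0.72 for Herc2, 0.19 for Mycbp2, 0.1 for Huwe1 and Ubr4, 0 for Herc1, −0.05 for Trip12 and −0.32 for Birc6. By that scale, too, edgeR called 0 of the 7, with 24 of all 5918 tested genes called higher and 33 lower.

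**Figure D3:**
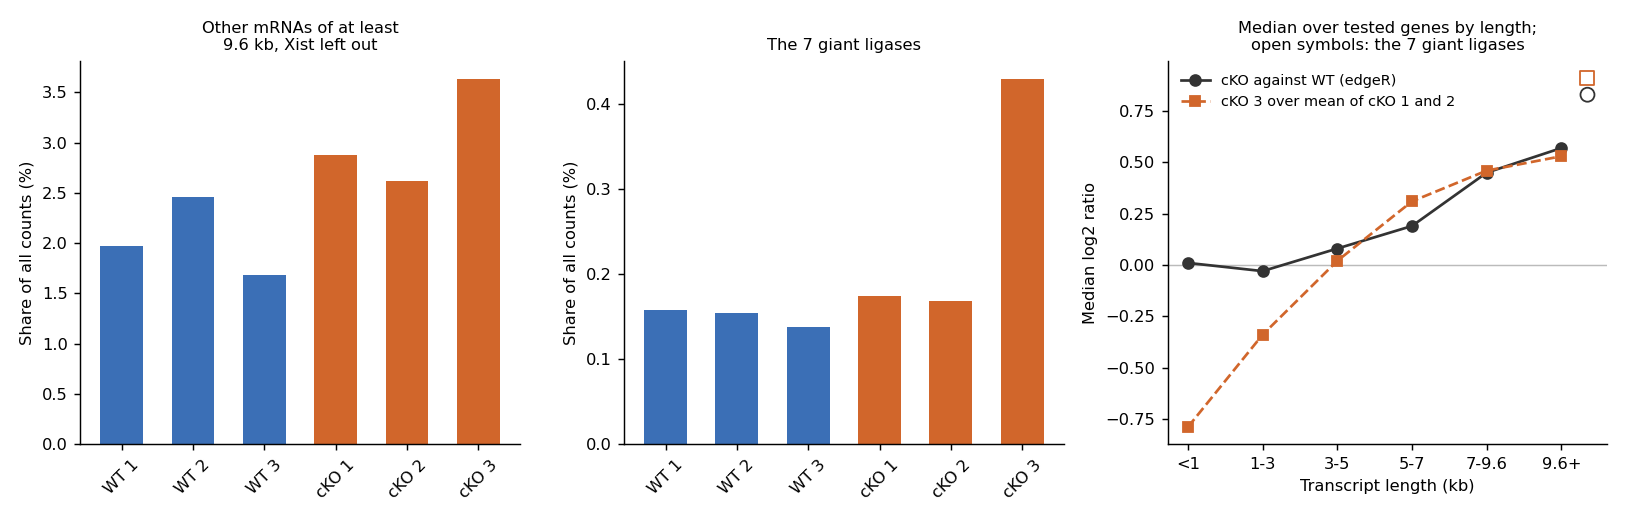
Share of all counts taken by other mRNAs of at least 9632 bases (left) and by the 7 giant ligases (middle) in each library, and median log2 ratio of tested genes by transcript length (right), for cKO against WT and for cKO replicate 3 against the mean of cKO replicates 1 and 2. The ligases take 0.429% of counts in cKO replicate 3 and at most 0.174% elsewhere, and their medians (open symbols) of 0.83 and 0.91 lie above those of the longest class at 0.57 and 0.53.

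Libraries also differed by chromosome, and how these differences arose was not tested. For each tested gene the log2(CPM + 1) was set against its median over the 6 libraries, and the median of these deviations was taken over each chromosome without the giant ligases. On chromosome 9, the home of Herc1, 335 genes stood at 1.17 in WT replicate 2 and 1.01 in cKO replicate 2, and at −0.22 to −0.13 in the other libraries. Herc1 itself stood at 0.43 and 1.14 in these replicate 2 libraries. On chromosome 7 the replicate 2 libraries stood at 0.42 and 0.78, where Herc2 stood at 0.27 and 1.89. On chromosome 1 the 502 other genes stood at −0.72 in WT replicate 3, where Trip12 stood at −1.78, and at −0.14 to 0.2 elsewhere. Shifts of this size were also seen on chromosomes without a giant ligase, such as chromosome 6 in cKO replicate 2 (1.78), chromosome 8 in WT replicate 2 (1.22) and chromosome 2 in cKO replicate 3 (−0.87). Chromosomes 4, 14 and 17 stayed within −0.39 to 0.23 in all libraries. The high values of Ubr4 (1.51) and Birc6 (1.35) in cKO replicate 3 were thus not shared by their chromosomes, at 0.18 and 0.07. In that library Huwe1 (1.51) and Trip12 (0.91) also stood above theirs, at 0.29 for X and 0.09 for chromosome 1. With each chromosome scaled on its own genes, edgeR still called 0 of the 7, with 29 of all 5918 tested genes called higher and 28 lower. Log2 fold changes of the 7 were then 0.35 to 1.17, with Herc1 at 0.62, Herc2 at 1.17 and Trip12 at 0.52. Mycbp2 stood there at 0.98 (SE 0.37, edgeR unadjusted p = 0.0365, adjusted p = 0.291), where 906 of the 5918 genes had an unadjusted p below 0.05.

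**Figure D4:**
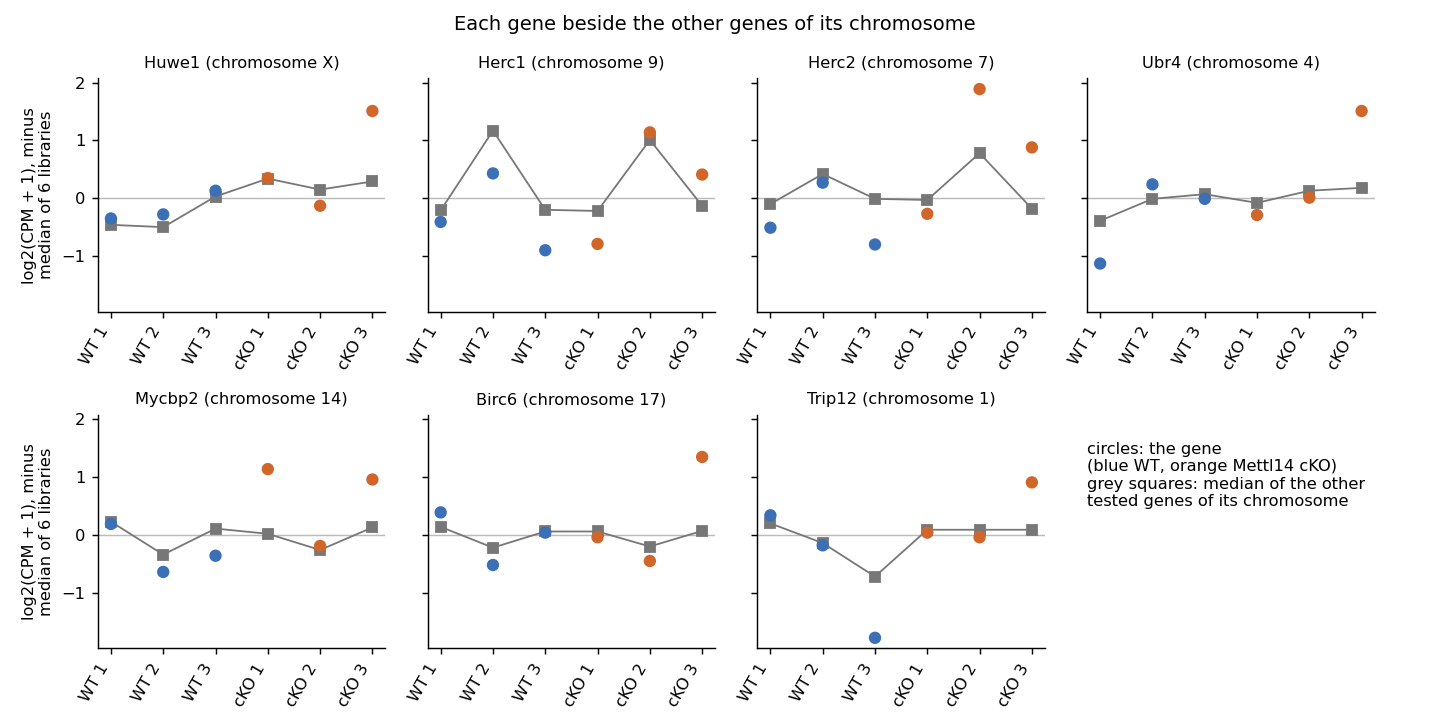
Deviation of log2(CPM + 1) from the median of the 6 libraries (y axis) for each giant ligase (circles, WT blue and cKO orange) and the median of the other tested genes of its chromosome (grey squares) in each library (x axis). The squares of chromosome 9 rise to 1.17 and 1.01 in the replicate 2 libraries and those of chromosome 1 fall to −0.72 in WT replicate 3.

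**Figure D5:**
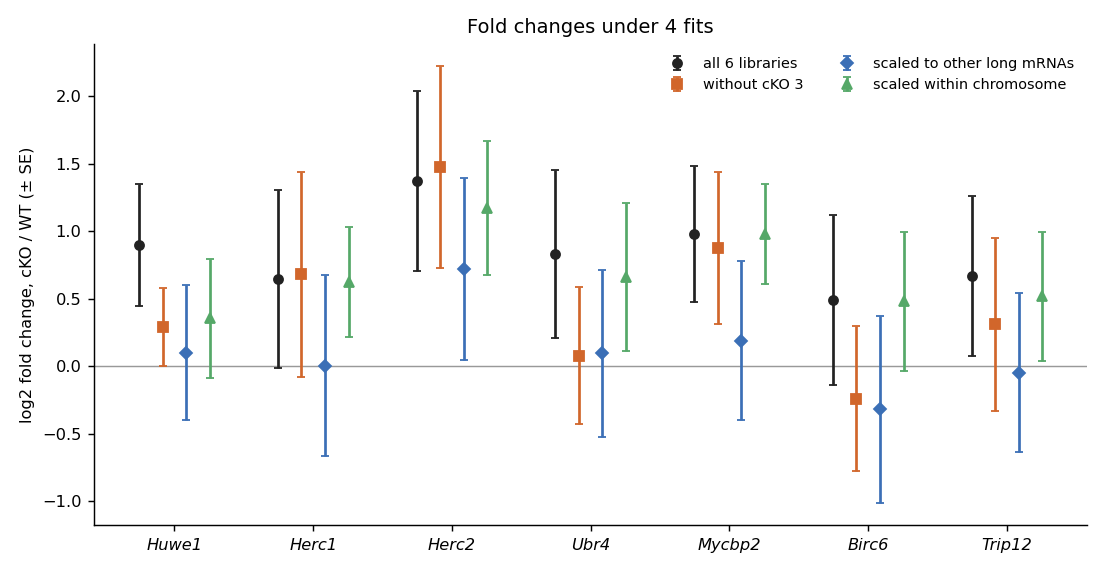
Log2 fold change of cKO relative to WT with its SE (y axis) for each giant ligase, from all 6 libraries, without cKO replicate 3, scaled to other long mRNAs and scaled within each chromosome. With all 6 libraries the values are 0.49 to 1.37, and Birc6 falls below 0 without cKO replicate 3 (−0.24) and, with Trip12 (−0.05), when scaled to other long mRNAs (−0.32).

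Genes whose pattern over the 6 libraries was most like that of the giant ligases were found by Pearson's r of log2(CPM + 1) over 6972 genes with a mean of at least 10 CPM, as a description of 6 libraries that share 2 groups. For the summed CPM of the 7 ligases (1497, 1572 and 1381 in WT, 1990, 2030 and 4067 in cKO) the closest were Golga3 (r = 0.984), Ino80, Gtpbp4, Tubgcp6 and Zc3h13 (r = 0.969). Zc3h13 is itself a component of the m6A writer complex, with 22.5, 24.1 and 21 CPM in WT and 25.5, 25 and 31.1 in cKO. These levels rest on few counts, as 1 count equalled 0.803 to 1.41 CPM. Since r takes no account of the size of a change, a high r can go with a small one. A link to the ligases was not tested. Closest to Huwe1 were Apc2, Scaf4 and Gtf2ird2, to Herc1 Rimklb, Gramd1a and Zfp512, and to Herc2 Actl6b, Dnttip2 and Katnal1. Closest to Ubr4 were Tbc1d22a, Zfp692 and Ebna1bp2, to Mycbp2 Chmp7, Paxbp1 and Fbf1, and to Birc6 Tmem184b, Asap2 and Pip5k1c. The genes closest to Trip12, Agfg1, Tpp2 and Agap1 (r = 0.988 to 0.993), all lie on chromosome 1 and were lowest in WT replicate 3. Of the 22 genes with r above 0.95 to Trip12, 17 lie on chromosome 1 (77.3%), where 7.99% of the 6972 genes lie. For the other 6 ligases the share on the same chromosome was 6.25% to 23.1%, against 2.7% to 8.02% of all these genes. These shares rest on small numbers: 7 of 33 for Huwe1, 2 of 19 for Herc1, 3 of 13 for Herc2. The numbers were 2 of 9 for Ubr4, 1 of 16 for Mycbp2 and 7 of 53 for Birc6.

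Among other genes of the same pathways, in the lists described next, edgeR called none at an adjusted p below 0.05. Among the other HECT ligases 19 of 22 were tested and edgeR called 0, with 2 at an unadjusted p below 0.05, a median of 0.28 and 13 above 0. DESeq2 called 1 of them, Nedd4l, a ligase of ion channels, and limma-voom 0. Nedd4l had 119, 73.9 and 104 CPM in WT and 260, 175 and 348 in cKO, a difference of 1.4 on the log2 scale (SE 0.47, edgeR adjusted p = 0.279). Hecw1, a neuronal HECT ligase, stood at 1.79 (SE 0.51, edgeR adjusted p = 0.232). For both, all cKO libraries lay above all WT libraries, as for 10.4% of tested genes. Herc3, a smaller relative of Herc1 and Herc2, stood at 1.38 (SE 0.64) and was highest in cKO replicate 2, at 98.1 CPM.

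Around Ubr4, 10 of 11 genes of the N-degron pathway were tested and 0 were called by edgeR, DESeq2 or limma-voom (0 at an unadjusted p below 0.05, median 0.13). Its partner Kcmf1 had 21.3, 85.9 and 9.31 CPM in WT and 32.3, 161 and 26.9 CPM in cKO, highest in replicate 2 of each group, and the N-recognin Ubr1 stood at 0.49 (SE 0.41) and the amidase Ntan1 at −0.38 (SE 0.45). Around Birc6, 5 of 11 apoptosis inhibitors, caspases and partners were tested and 0 called by any of these tools (0 at an unadjusted p below 0.05, median 0.82). Diablo, which binds and blocks such inhibitors, stood at −0.95 (SE 0.64). Uba6, the E1 that serves Birc6, had 23.6, 11.2 and 23.3 CPM in WT and 20.2, 15 and 62.2 CPM in cKO, with cKO replicate 3 again the highest.

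Around Mycbp2, 9 of 12 genes were tested and edgeR, DESeq2 and limma-voom called 0 (0 at an unadjusted p below 0.05, median 0.3). Its F-box partner Fbxo45 had 0 counts in each of the 6 libraries, which by counting error alone allows up to 2.41 to 4.24 CPM per library. A 0 need not mean absence here, as Mcl1 had 0 counts in WT replicate 1 and 253 to 323 in the other libraries. Map3k12 (DLK), the kinase that Mycbp2 restrains in axons, had 20.2, 12.9 and 15.1 CPM in WT and 24.2, 25 and 31.1 CPM in cKO, a difference of 0.74 on the log2 scale (SE 0.36, edgeR adjusted p = 0.469). The kinase Mapk8 (JNK1), which acts downstream of it, stood at 0.48 (SE 0.39), and the Mycbp2 partner Rae1 at 1.8 (SE 0.85). Nmnat2, the axon survival enzyme that Mycbp2 removes, had 390, 214 and 257 CPM in WT and 298, 246 and 170 CPM in cKO, with overlapping groups and a log2 fold change of −0.27 (SE 0.42). Sarm1, which drives axon degeneration, lay below the filter with 2 to 15 counts per library.

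Of 12 partners and targets of Herc1 and Herc2, all tested, edgeR, DESeq2 and limma-voom called 0, with 3 at an unadjusted p below 0.05 by edgeR and a median of 0.56. The DNA repair protein Xpa stood at 1.63 (SE 0.39, edgeR adjusted p = 0.173) and the ligase Rnf8 at 1.18 (SE 0.43). Of 11 Huwe1 targets 5 were tested and 0 called by any tool (0 at an unadjusted p below 0.05, median 0.08). Myc and Atoh1 had 0 counts throughout. Mcl1, the target for which Huwe1 is best known, had 0 CPM in WT replicate 1, 243 to 376 in the other WT libraries and 285 to 403 in cKO, with a log2 difference of 0.73 (SE 1.44). The DNA polymerase Polb stood at −0.16 (SE 0.46) and the Myc partner Zbtb17 at 0.15 (SE 0.55). Of 8 Trip12 targets and partners 6 were tested and 0 called by any tool, with 1 at an unadjusted p below 0.05 (median 0.11). That gene, Sox6, stood at −2.75 (SE 0.77, edgeR adjusted p = 0.23). Oligodendrocyte and precursor markers were also lower in cKO, as given above, and a link of Sox6 to them was not tested. The ligase Rnf168, which Trip12 restrains in DNA repair, stood at 0.65 (SE 0.51). Among 12 tested genes of ubiquitin itself, E1 and E2 enzymes, 0 were called by any tool, with 1, the E2 Ube2d1 at 1.62 (SE 0.63), at an unadjusted p below 0.05 and a median of −0.01. The E2 enzymes Ube2d2a and Ube2k stood at 0.78 (SE 0.51) and −0.65 (SE 0.43).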

How the data were processed

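RNA of 6 libraries (3 WT, 3 Mettl14 cKO, grouped by title) was used. The authors deposited 1 RSEM transcript table per library. The submitters' processing notes list STAR 2.7.10b, RSEM 1.3.3 and mm10. Annotation release and strand setting: not given in the sources used here; the kit does not mark strand. The expected counts deposited by the authors estimate fragments per transcript, per the file headers, and the deposited TPM values are scaled to length and library total. The other deposited columns, transcript length and effective length, served for length and mean fragment length. No score, ratio or test of the authors was used.

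For each gene, expected counts of its transcripts were added up and rounded to whole numbers. The test was edgeR 4.0.16 in R 4.3.3 (quasi-likelihood, TMM, filterByExpr with minimum count 10), cKO against WT over 6 libraries with no covariate, called at an adjusted p below 0.05. limma 3.58.1 and DESeq2 1.42.0 gave alternatives. Each SE was worked back from F and the fold change, so it restates the p-value; 95% intervals use the fit's degrees of freedom. Counting intervals (exact Poisson) and the floor of 3 counts take in no other error. A gene's length is the count-weighted mean over its transcripts. Positions are from RefSeq on GRCm38, to which 24157 genes were matched by accession and 160 by symbol; sequences are from GENCODE M21. Of the genes overlapping the ligases without strand, those quantified by the authors had at most 1 count per library, and the others could not be checked.

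Members and lists were chosen with earlier results of these data known. Named genes are the 7 ligases, from each list up to 3 tested members with the smallest p, and the genes most alike in pattern. Nmnat2, Ube3a, Fbxo45, Sarm1 and genes at 0 were named after their values were seen. A few list members are not reported here.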

Additional observations from a re-analysis of the deposited data

How the results depend on the processing

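The giant ligases called were 0 of 7 under every alternative run. For some alternatives that count could not set the ligases apart from other genes, because almost no gene passed. Over all tested genes 0 passed without WT replicate 3, without cKO replicate 1 and without both replicate 2 libraries. Only 1 gene passed without WT replicate 1, and only 1 when the fit was blocked by replicate. Scaling to other long mRNAs, also chosen after seeing the data, took the median log2 fold change over all tested genes to −0.657, and upper-quartile scaling took it to −0.220, from 0.069. Of the fold changes of the ligases, that of Birc6 changed sign without cKO replicate 3 (leaving out each library in turn gave −0.241 to 0.804), and those of Birc6 (−0.321) and Trip12 (−0.049) changed sign when scaled to other long mRNAs; the cause was not tested. All the others kept their sign under all alternatives. Without cKO replicate 2 the unadjusted edgeR p was 0.0298 for Huwe1 and 0.0312 for Mycbp2 (below 0.05 for 747 of 6416 genes). Without cKO replicate 1 it was 0.0312 for Herc2 (below 0.05 for 591 of 6795 genes). Over all genes, edgeR called 29 higher and 25 lower, 12 and 10 with no filter and equally when 1 CPM was asked of 3 libraries; DESeq2 called 183 and 108. Leaving out each library in turn gave 0 to 28 higher and 0 to 14 lower, and leaving out both replicate 2 libraries, chosen after seeing the data, gave 0 and 0 (edgeR alone was run there; its unadjusted p was below 0.05 for 740). With the replicate number as a block, edgeR called 1 higher and 0 lower (763 at an unadjusted p below 0.05) and 0 ligases. The titles number replicates 1 to 3 in both groups, but same-numbered libraries deviated together with r of 0.0638, 0.462 and 0.162, and not every library correlated best with its own number, so the numbers were not taken to pair the samples. The replicate 2 libraries did deviate together, and both had the shorter fragments and the higher levels of chromosomes 7 and 9. Both also stood higher on chromosomes without a giant ligase, at 0.38 (WT) and 0.45 (cKO) on chromosome 2 and 0.56 and 1.78 on chromosome 6. Birc6 had the fewest counts, 37 to 93, but for it as for the other ligases the spread between libraries was larger than counting error.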
